A study of Mus musculus with 375 samples.

Results

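Intestinal crypt cells sorted for Lgr5, whose transcripts showed no or few signs of the cell cycle, are described here. They were picked from a table of single cells by transcript level alone: a cell had to have at least 2000 genes above 0 TPM (each gene's share of a cell's transcripts, with gene length allowed for), Mki67 under 1 TPM, fewer than 3 of 7 G1/S genes at 10 TPM or more and fewer than 3 of 7 mitosis genes at 10 TPM or more. The G1/S genes were Cdc6, Ccne1, Ccne2, Mybl2, Uhrf1, Tcf19 and Cdc45, and the mitosis genes were Ccnb1, Ccnb2, Plk1, Prc1, Nusap1, Fam83d and Kif18b. All but 8 of the cells passed the limit on genes. Of 93, 91, 91 and 92 passing cells in the study's 4 sets (2 on control diet, then 2 on high-fat diet), 32, 34, 19 and 34 met the rule, 32.4% in all (exact Clopper-Pearson 95% interval 27.7 to 37.5, counting error only), and are called non-cycling cells below. The other 61, 57, 72 and 58 passing cells are called cycling cells, although the rule puts any cell with Mki67 at 1 TPM or more among them. Both names stand for the rule and not for a measured division rate, since a cell between the phases that the 15 genes mark may also be counted as non-cycling.

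The study isolated Lgr5+ cells from the mouse small intestine by flow sorting and sequenced each cell by Smart-seq2, a full-length plate method without molecular identifiers. Mice were on a control diet or on a high-fat diet (HFD). From the titles the cells form 4 sets, always given here in the order control 1, control 2, HFD 1 and HFD 2, with 94 cells each except HFD 1 with 93. All 4 sets share the sort for Lgr5. The labels give no strain, age or sex, do not give the composition or length of the diets, and do not say whether a set is 1 mouse, a pool or a plate, so each test below has 2 sets per diet and measures only the spread between these sets. No doublet caller was run.

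Crypt base columnar cells are the stem cells of the intestinal lining; they carry Lgr5, a receptor that strengthens Wnt signalling, and most of them divide steadily. In other tissues stem cells often rest, held there by inhibitors of cyclin-dependent kinases and by repressor complexes on cell cycle genes. In the crypt a smaller slow-dividing fraction has been described, both among stem cells and among early secretory progenitors.

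The non-cycling cells made up a similar share of 3 of the sets and a lower share of the other. They were 32 of 93 passing cells in control 1 (34.4%, 95% interval 24.9 to 44.98), 34 of 91 in control 2 (37.4%, 27.4 to 48.1), 19 of 91 in HFD 1 (20.9%, 13.1 to 30.7) and 34 of 92 in HFD 2 (36.96%, 27.1 to 47.7). HFD 1 alone was low, and HFD 2 lay between the control sets. The mean share was 6.97 percentage points lower with HFD, less than the spread between the sets (8.17 points, the pooled SD within diets), with p = 0.667 in an exact two-sided permutation test of the 4 sets. That test cannot go below 0.333 with 2 sets against 2, which holds for every permutation test below.

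Mki67, the proliferation antigen, was listed at 0 in 23, 34, 15 and 32 of the non-cycling cells of the 4 sets, and the remaining 15 cells lay between 0.2 and 0.94 TPM. Mki67 was under 1 TPM in 37, 37, 24 and 43 passing cells, and the other 14 genes of the rule removed 22 of those, 20 by the G1/S genes alone, 1 by the mitosis genes alone and 1 by both. Near the limit on G1/S genes, the 16 members with 2 such genes had a mean S-phase score of 4.31 (the mean log2(TPM + 1) of 34 replication genes outside the rule) and a median Lgr5 of 149.3 TPM. Just outside it, the 9 cells with 3 such genes had a score of 4.60 and a median Lgr5 of 101.98 TPM. Another 25 cells met all of the rule except that their Mki67 was from 1 to under 10 TPM; their S-phase score was 2.74 and their median Lgr5 93.4 TPM. The limits therefore cut through a continuous range.

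The depth behind each cell is unknown because TPM keeps none, but the number of genes above 0 TPM can be given. Its median was 6398, 5544, 5994 and 5708.5 genes in the non-cycling cells of the 4 sets, and 7089, 6560, 7055 and 6768 in the cycling cells, so non-cycling cells had fewer genes in every set. Rn45s, the ribosomal RNA precursor, took 39.99%, 24.4%, 27.4% and 19.2% of the TPM total in non-cycling cells and 38.7%, 24.7%, 26.7% and 18.2% in cycling cells, a difference between sets more than between classes. In the fits below, leaving Rn45s out moves the median diet difference of all genes in non-cycling cells from 0.12 to -0.06 on the log2 scale. The part of gene number and of Rn45s in any difference below was not tested beyond the values given with it.

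The stem cell label was met by nearly all non-cycling cells. At least 3 of the 4 markers Lgr5, Ascl2, Olfm4 and Smoc2 reached 10 TPM in 31, 31, 19 and 31 of the 32, 34, 19 and 34 non-cycling cells (94.1%, 95% interval 88.3 to 97.6), all 4 in 74, and no cell had 0 of them. Among cycling cells the counts were 58 of 61, 53 of 57, 66 of 72 and 54 of 58 (93.1%). Other epithelial types were a minority: 22 non-cycling cells had at least 3 goblet markers (10 cells) or at least 3 Paneth markers (13 cells) at that level, 4, 3, 6 and 9 of them by set. None carried 3 enteroendocrine, tuft, T cell, B cell, myeloid or stromal markers (0 cells for each class, which allows a share of up to 2.52% of the non-cycling cells). Enterocyte transcripts were present in most sorted cells of either class, with at least 3 of 16 markers in 31, 32, 16 and 30 non-cycling cells and 56, 57, 70 and 57 cycling cells of the sets.

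**Figure D1:**
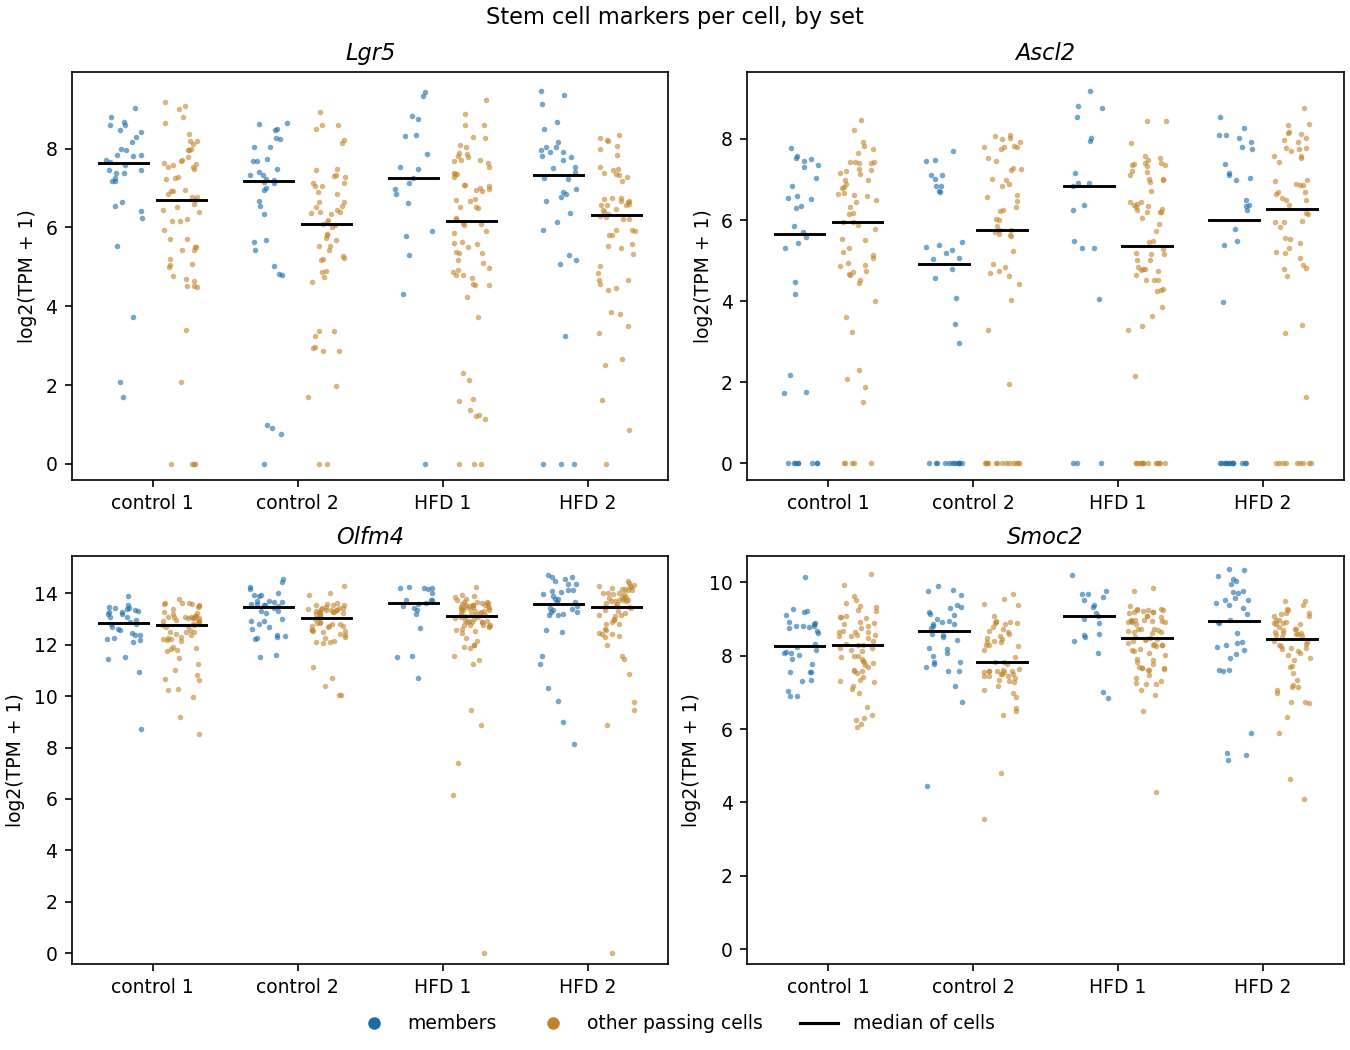
The log2(TPM + 1) of Lgr5, Ascl2, Olfm4 and Smoc2 in each non-cycling cell (members) and cycling cell (other passing cells) of the 4 sets, with the median of the cells as a line. Median Lgr5 is 196.4, 144.1, 152.3 and 160 TPM in the non-cycling cells of the sets, left to right, and 101.98, 66.4, 70.98 and 78.6 TPM in the cycling cells.

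Because the rule separated non-cycling from cycling cells by transcript level, every difference between these classes is given as a description and without a test. The measure is the difference, within a set, of log2(mean TPM + 1) between the classes, averaged over the 4 sets, which understates the change of genes with low levels. Of 12094 genes outside the rule, 1127 (9.32%) were higher in non-cycling cells in all 4 sets and 1891 (15.6%) were lower in all 4. The median difference over all genes was -0.05. A gene was measured when its mean over the 4 sets reached 1 TPM in either class; 568 genes reached it only in cycling cells and 474 only in non-cycling cells, and such genes had to differ. Of the 11052 genes that reached it in both classes 9.82% were higher and 14.6% lower in all 4 sets, with a median of -0.04. Counts and medians of lists below are over the genes that reached it in both classes, unless stated.

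Among the genes of the rule, non-cycling cells had little mitotic transcript and a residue of some G1/S transcripts. Mean Mki67 was 0.160, 0, 0.105 and 0.0465 TPM in non-cycling cells against 57.8, 62.1, 56.1 and 45.5 TPM in cycling cells. Kif18b, a mitotic kinesin, was listed at 0 in all 4 sets of non-cycling cells. Ccnb2, a mitotic cyclin, reached 14.02 TPM in control 2 and 20.3 TPM in HFD 2 but 1.56 and 1.19 TPM in the other two sets, against 158.2 to 205.9 TPM in cycling cells. Uhrf1, which maintains DNA methylation after replication, was still at 14.1, 25.3, 21.3 and 21.8 TPM, against 101.003, 95.8, 113.6 and 127.4 TPM. The rule thus left a tail of cells with single cycle genes, since up to 2 of each list were allowed.

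Genes of the cycle that the rule did not name were low in the same cells. Of 40 measured G2/M genes outside the rule, 16 reached 1 TPM only in cycling cells and had to be lower. The other 24 were also lower in non-cycling cells in all 4 sets, with a median difference of -3.61. Ccna2, the cyclin of S phase and G2, was at 0.558, 3.82, 0 and 0.520 TPM in non-cycling cells and at 116.7, 154.4, 160 and 150 TPM in cycling cells. Cdc20, an activator of the anaphase-promoting complex and 1 of the 16, was at 1.79, 0, 0.902 and 0.0274 TPM against 108.7, 141.9, 101.2 and 110.9 TPM. For both genes every set mean of the non-cycling cells lay far below every set mean of the cycling cells. Top2a, which untangles replicated DNA, was at 3.96, 5.24, 6.18 and 6.55 TPM against 131.8, 188.4, 159.1 and 154.9 TPM, and was thus present at a low level in non-cycling cells of every set.

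Replication genes outside the rule separated the classes less. Of 32, 28 were lower in non-cycling cells in all 4 sets and none was higher, with a median of -0.97. Rrm2, the S-phase subunit of ribonucleotide reductase, was at 4.56, 0.973, 2.81 and 1.49 TPM in non-cycling cells and at 42.1, 63.6, 62.6 and 101.04 TPM in cycling cells (mean difference -4.35). Pcna, the sliding clamp of DNA polymerases, stayed at 128.3, 99.4, 151.3 and 161.4 TPM against 191, 201.8, 366.1 and 437 TPM (-1.07). The helicase subunits Mcm2 and Mcm4 differed by only -0.35 and -0.30. Mcm2 and Mcm4 thus differed less than the list median, and Pcna slightly more, though it stayed abundant. The other helicase subunits are not compared between the classes here. Rrm2, Ccna2 and Cdc20 were at 4.56 TPM or less in every set of non-cycling cells, Cdc20 having been measured only through cycling cells.

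Histone genes followed the replication genes. Of 59 measured, 36 reached 1 TPM only in cycling cells; of the other 23, 15 were lower in non-cycling cells in all 4 sets and none was higher, with a median of -1.54. This family was chosen after its values were seen. Hist1h2ao was at 2.75, 7.19, 5.58 and 3.21 TPM against 299.3, 584, 536 and 731 TPM, the widest gap of any gene outside the rule with at least 10 TPM (-6.57). Levels of single histone genes are uncertain because near-identical copies share reads. Ribosomal protein genes, also chosen after their values were seen, went slightly the other way: 51 of 81 were higher in all 4 sets and 3 lower, with a median of 0.14, and processed pseudogenes may share their reads.

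Lgr5 itself was higher in non-cycling than in cycling cells in every set. Its mean was 211.001, 154.5, 223.9 and 193.8 TPM in non-cycling cells, against 141.2, 97.8, 113.04 and 96.6 TPM in cycling cells (mean difference 0.80, range over sets 0.58 to 0.997). The transcript was held, at 1 TPM or more, by 32 of 32, 30 of 34, 18 of 19 and 31 of 34 non-cycling cells. With the comparison restricted to cells of 5500 to under 7500 genes (85 non-cycling cells, and 41, 51, 49 and 45 cycling cells by set), the difference was 0.56 and Lgr5 was still higher in all 4 sets. Among the 55 members with no gene of either rule list at 10 TPM, median Lgr5 was 181.3 TPM. Lgr5 lies on chromosome 10 from 115450311 to 115587780 on the minus strand (all positions are from the GENCODE annotation of GRCm38, the mm10 build).

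Of the other markers, Olfm4 and Smoc2 were also higher in non-cycling cells in all 4 sets, and Ascl2 was not. This depended on the cells compared. Without cells carrying secretory transcripts, Lgr5 was the only 1 of the 4 markers higher in all 4 sets. In cells of 5500 to under 7500 genes 2 of the 4 markers were, Lgr5 among them. Olfm4, a secreted glycoprotein of crypt base cells on chromosome 14 (79984081 to 80023139), had mean levels of 7470.5, 10988, 12263 and 12673 TPM against 6672, 8240.4, 8584 and 11241 TPM (0.32). Smoc2, a matrix protein that binds growth factors (chromosome 17, 14279506 to 14404790), was at 363.2, 429, 557 and 557 TPM against 353.5, 292.3, 378.2 and 344.4 TPM (0.46), with hardly any gap in control 1. Ascl2, a transcription factor under Wnt control (chromosome 7, 142966829 to 142969264), was at 69.8, 51.1, 164.5 and 98.5 TPM against 85.8, 86.1, 71.8 and 109.1 TPM, higher in non-cycling cells in HFD 1 alone.

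A wider list of 25 stem cell and crypt base genes was shifted toward the non-cycling cells. In all 4 sets 13 of them were higher and none was lower, with a median of 0.29. Gkn3, a secreted gastrokine that marks crypt base cells, was at 477, 644, 709 and 754 TPM against 274.1, 403, 424 and 381.1 TPM (0.80, range 0.67 to 0.98). Slc12a2, a sodium, potassium and chloride cotransporter, was at 144.2, 157.3, 195.7 and 174.7 TPM against 84.8, 106.5, 122.4 and 119.03 TPM (0.63). Soat1, which esterifies cholesterol, was at 317.2, 286.1, 325.6 and 241.1 TPM against 204.2, 186.6, 198.996 and 166.7 TPM (0.62). For these 3 genes the lowest set of non-cycling cells stood above the highest set of cycling cells. Rnf43, a ubiquitin ligase that limits Wnt receptors, differed by 0.53, and Igfbp4, a binder of insulin-like growth factors, by 0.58. The count depends on the scale: with the mean of log2(TPM + 1) over cells in place of the log2 of the mean, 5 genes were higher and 1 lower, and in the window of gene numbers 9 were higher and 1 lower.

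Genes proposed for reserve or regenerative stem cells were not among those that marked the non-cycling cells. Of 8 such genes none was higher in all 4 sets and none was lower. Wnt receptors and targets were higher in 2 of 15 and Notch pathway and fate genes in 2 of 10, beside 9.82% of all genes, so these counts say little about either list. Dll1, a Notch ligand of early secretory progenitors, was held by 13 of 32, 12 of 34, 5 of 19 and 8 of 34 non-cycling cells, and its mean of 40.9, 17.8, 27.5 and 29.6 TPM compared with 13.7, 15.5, 25.6 and 15.2 TPM in cycling cells (0.68). The gap was small in control 2 and HFD 1. Neurog3, the switch to enteroendocrine fate, was listed at 0 in all non-cycling cells.

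**Figure D2:**
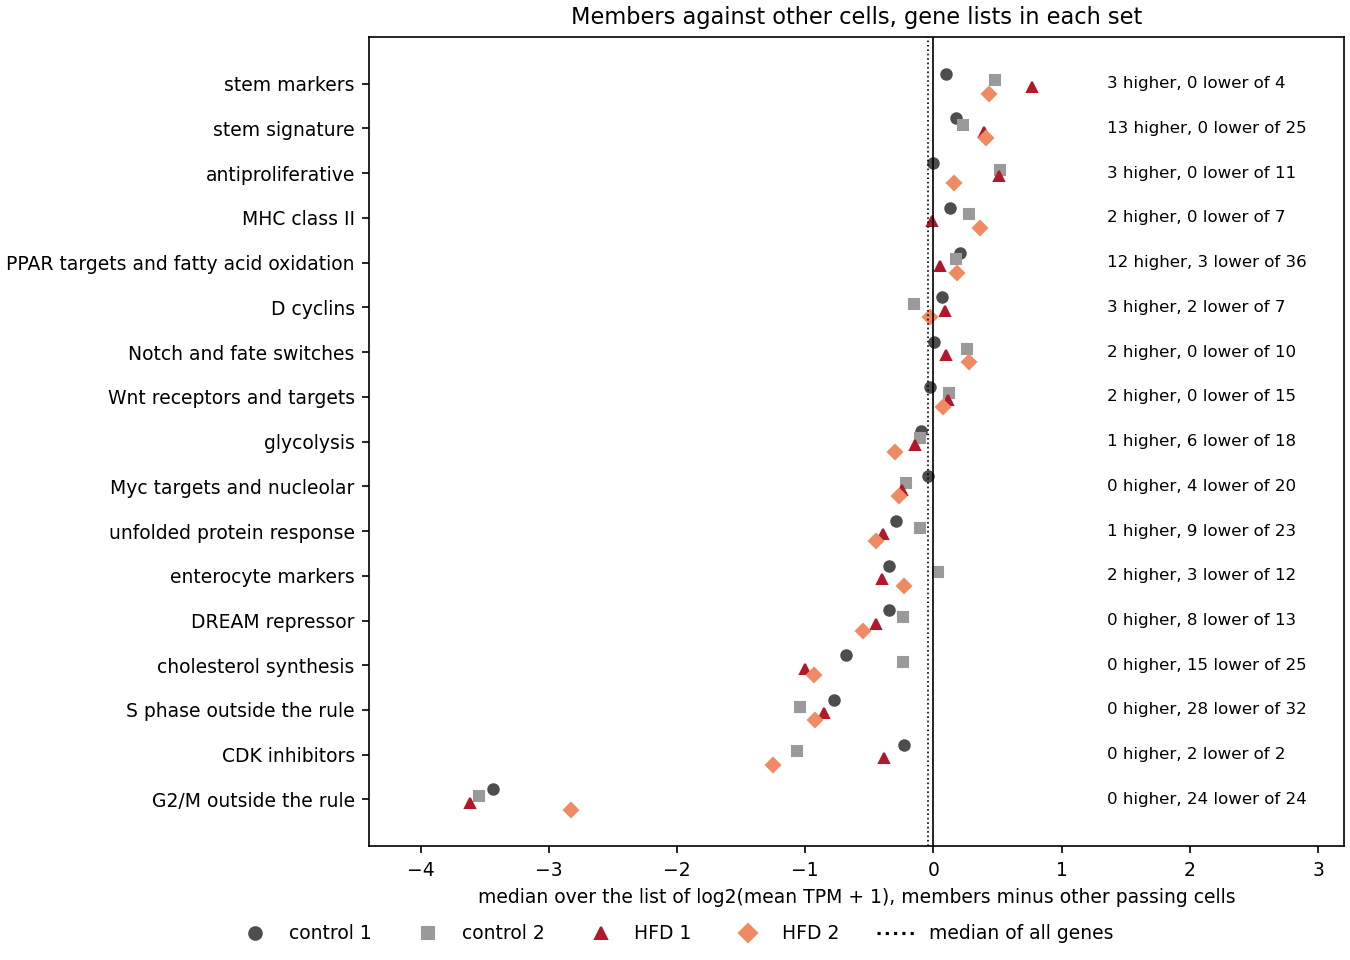
For each gene list, the median difference of log2(mean TPM + 1) between non-cycling and cycling cells in each of the 4 sets, over the genes that reached 1 TPM in both classes, with the median over all such genes as a dotted line. As the median of the genes' means over sets, the G2/M list is at -3.61 and the S-phase list at -0.97, cholesterol synthesis stands at -0.81 and the stem signature at 0.29.

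No inhibitor of cyclin-dependent kinases on the list of 7 was higher in non-cycling cells in all 4 sets. Cdkn1c, Cdkn2a and Cdkn2b were too low to be measured, and Cdkn1a and Cdkn2d reached 1 TPM only in cycling cells, so that they had to be lower. The remaining pair, Cdkn1b and Cdkn2c, were lower in non-cycling cells in all 4 sets. Cdkn1a (p21) was listed at 0 in 3 sets and at 0.574 TPM in HFD 2, from 1 cell, against 2.55, 3.54, 2.95 and 7.89 TPM in cycling cells. Cdkn1b (p27) was the most abundant, at 18.7, 6.67, 19.6 and 10.02 TPM against 25.4, 18.5, 20.6 and 13.4 TPM. Cdkn2c (p18) was at 3.57, 3.33, 3.15 and 0.619 TPM against 3.72, 6.45, 5.77 and 6.05 TPM. Cdkn2d (p19) was at 0.733, 0, 0 and 1.26 TPM against 7.57, 9.82, 8.65 and 12.97 TPM. The gap was narrow for Cdkn1b in HFD 1 and for Cdkn2c in control 1. With stricter members (fewer than 2 genes of each rule list) 2 of the 4 measured inhibitors were lower in all 4 sets. In cells of 5500 to under 7500 genes 3 were lower, as without cells carrying secretory transcripts. None was higher in these settings. Protein was not measured.

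Transcripts for the DREAM complex, which represses cell cycle genes in resting cells, were not raised either. Of 13 genes for its subunits, 8 were lower in non-cycling cells in all 4 sets and none was higher (median -0.48). That is 61.5%, beside 14.6% of all genes and 64.3% of 14 housekeeping genes. Whether the complex itself was formed was not measured. Rbl2, the pocket protein p130, was at 6.42, 7.36, 3.90 and 8.86 TPM against 14.7, 14.3, 7.93 and 14.04 TPM (-0.86). In cells of 5500 to under 7500 genes 4 of the 13 were lower, and none was higher.

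A few antiproliferative genes were higher. Of 11, 3 were higher in all 4 sets (27.3%, beside 9.82% of all genes) and none lower, with a median of 0.38. The set medians were -0.007, 0.52, 0.51 and 0.16. Over all 12 measured the median was 0.22, which turned to -0.04 with the mean of cell-wise logs. With cell-wise logs, and also in the window of gene numbers, 3 of the 12 were higher and 1 was lower. Trp53inp1, a stress protein induced by p53, was at 16.8, 6.35, 17.6 and 9.62 TPM against 7.21, 2.70, 4.09 and 3.87 TPM (1.27). Btg2, an antiproliferative factor that promotes mRNA decay, was at 25.5, 30.9, 46.995 and 16.7 TPM against 14.1, 8.67, 10.1 and 14.8 TPM (1.204), with a narrow gap in HFD 2. Txnip, which binds thioredoxin and restrains glucose uptake, was at 120, 150.9, 221.3 and 175.4 TPM against 84.7, 98.03, 121.7 and 125.4 TPM (0.61).

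The G1 machinery was present. Cdk6, a kinase that acts with D cyclins, was higher in non-cycling cells, at 184.5, 114.5, 113.8 and 78.1 TPM against 108.9, 71.8, 96.5 and 71.9 TPM (0.44). Ccnd2, a D cyclin, and Myc, a transcription factor that promotes growth, were higher by 0.21 and 0.20 in all 4 sets, while Cdk4 was lower (-0.27). The D cyclin list of 7 genes had no single direction. In all 4 sets 3 were higher and 2 lower (42.9% and 28.6%, beside 9.82% and 14.6% of all genes). Its mean score per cell differed between the classes by 0.040, -0.056, -0.105 and -0.491 in the 4 sets. Among 20 Myc targets and nucleolar genes 4 were lower (20%), a share near the 14.6% of all genes, and the number moved to 11 with cell-wise logs and to 2 in the window of gene numbers. Within the non-cycling cells of a set, the S-phase score and the score of the Myc and nucleolar list were related: Pearson r was 0.59, 0.51, 0.78 and 0.54 over 32, 34, 19 and 34 cells. The cells of a set are not independent replicates. The S-phase score was also related to the number of genes in a cell (r of 0.54, 0.65, 0.58 and 0.51), so the relation is given only as a description.

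The 10 genes outside the rule with the largest differences toward non-cycling cells, among those with at least 10 TPM there and 1 sign in all 4 sets, were Pik3ap1, Fam20c, Creb3l3, Ppm1l, Arhgef4, Trp53inp1, Gsdmd, Tctn3, Btg2 and Cd83. Most were carried by a minority of the cells. Pik3ap1, an adaptor of phosphoinositide 3-kinase, averaged 16.2, 8.90, 32.8 and 13.9 TPM against 12.998, 6.06, 0.960 and 2.69 TPM, and was held by 9, 6, 9 and 10 non-cycling cells. Gsdmd, the pore-forming protein of pyroptosis, was at 43.2, 32.9, 58.8 and 25.3 TPM against 14.1, 12.5, 18.9 and 16.2 TPM (1.27), with no overlap between the classes. In the other direction the 10 largest were cycle and histone genes: Hist1h2ao, Ccna2, Hist2h3b, Cdc20, Aurkb, Hist2h3c2, Kif22, Pbk, Shcbp1 and Ccnf.

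Metabolic lists divided in direction. Cholesterol synthesis genes were lower in non-cycling cells, 15 of 25 in all 4 sets and none higher, with a median of -0.81 (set medians -0.68, -0.24, -1.004 and -0.93). Of all genes 14.6% were lower in all 4 sets, and of 14 housekeeping genes 9 (64.3%) were, with a median of -0.29. The count is thus not particular to this list. Its median was lower than that of the housekeeping genes, except in control 2 (-0.24 against -0.36). The part of a wider shift in the cholesterol synthesis genes was not tested. Sqle, which oxidises squalene, was at 5.67, 4.10, 10.9 and 8.26 TPM against 9.42, 15.1, 35.5 and 34.2 TPM (-1.46). In every set the cycling cells had more of this transcript. Under 5 other settings the number of genes lower in all 4 sets lay between 13 and 19 of 25.

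Chaperones of the endoplasmic reticulum were also lower, 9 of 23 genes of the unfolded protein response in all 4 sets with 1 higher (median -0.30). That is 39.1%, beside 14.6% of all genes. Housekeeping genes were shifted by a like amount, with 9 of 14 lower and a median of -0.29. The shift is thus not particular to folding genes, and the part of a wider shift in it was not tested. Hspa5 (BiP), the main folding chaperone there, was at 85.6, 91.1, 128.9 and 128.1 TPM against 112.9, 117.7, 246.4 and 246.1 TPM (-0.66). Sdf2l1, its partner, was at 7.64, 4.72, 25.1 and 24.7 TPM against 28.8, 30.6, 49.9 and 70.2 TPM (-1.67). Herpud1, which acts in the removal of misfolded proteins, was the exception, higher by 0.36. The HFD sets stood above the control sets in both classes for Hspa5.

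Targets of PPAR receptors and genes of fatty acid oxidation leaned toward the non-cycling cells, with 12 of 36 higher in all 4 sets, 3 lower and a median of 0.14. Creb3l3, a transcription factor of lipid metabolism anchored in the endoplasmic reticulum, was at 19.1, 22.7, 36.6 and 41.5 TPM against 7.18, 8.71, 11.9 and 11.2 TPM (1.48, range 1.29 to 1.80). Acot1, an acyl-CoA thioesterase with near-identical paralogs, was at 149.4, 221.9, 309.2 and 323.1 TPM against 83.7, 151.2, 142.7 and 193.7 TPM (0.81). Fabp1, a fatty acid binding protein first known from liver, went the other way (-0.41), as did Cpt1a, which brings fatty acids into mitochondria (-0.27). Over all 38 measured genes 12 were higher and 4 lower. These numbers were 9 and 7 without cells carrying secretory transcripts, and 5 and 7 with cell-wise logs. The lean thus depends on the scale: the mean score per cell differed between the classes by 0.128, -0.0045, -0.097 and -0.185 in the 4 sets.

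Glycolysis gave 1 of 18 genes higher and 6 lower. The higher gene was Aldoa, the muscle-type aldolase, at 408, 435, 553 and 673 TPM against 245.1, 251.6, 316.3 and 312.4 TPM (0.86), while Tpi1 and Gapdh, which act on its products, were lower (log2 differences of -0.40 and -0.29). Among 14 housekeeping genes 9 were lower and 2 higher (median -0.29). Few secretory markers separated the classes: of 7 goblet markers none was higher or lower in all 4 sets, and of 8 Paneth markers Itln1, an intelectin, alone was lower.

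The rule used no diet, so it did not make the diet comparison within non-cycling cells. It did limit cycle transcripts, so diet differences of cycle and replication genes are taken among cells already limited in them. The G1/S score of the rule in cycling cells was 2.29, 2.23, 2.70 and 3.15 by set. The diet comparison was made on the log2(mean TPM + 1) of the non-cycling cells of each set with limma, a linear model across all genes that pools their spread. Of 11535 genes tested, 5 (0.0433%) had an adjusted p under 0.05 (Benjamini-Hochberg), 3 higher and 2 lower with HFD, while 744 had an unadjusted p under 0.05. In the cycling cells of the same sets 34 of 11635 genes passed, 23 higher and 11 lower; Fabp1, Reg3g and Reg3b passed in both classes. Bulk levels over a set cannot tell fewer cells with a transcript from less transcript per cell, so the count of cells with the transcript is given for the genes that passed.

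Fabp1 rose with HFD in non-cycling cells. Its mean was 21.96 and 44.4 TPM on control diet and 255.5 and 426.9 TPM on HFD, which did not overlap. The transcript was held by 11 of 32 and 16 of 34 non-cycling cells of the control sets (34.4% and 47.1%) and by 14 of 19 and 27 of 34 of the HFD sets (73.7% and 79.4%), with medians of 0, 0, 67.1 and 276 TPM. The log2 difference was 3.36 ± 0.38 (SE, n = 2 sets per diet) with a limma adjusted p of 1.18e-04. In cycling cells it was 3.37, from 30.6 and 56.6 TPM to 404 and 478 TPM, and the difference between the classes was -0.01 ± 0.38, with a 95% interval of -0.998 to 0.98. Fabp1 is on chromosome 6 (71199827 to 71205023) and encodes the carrier of fatty acids in absorptive cells. It passed in 8 of 11 alternative settings that kept all 4 sets and in 0 of 4 that left out a set. Without cells carrying secretory transcripts its difference was 2.85, with a limma adjusted p of 0.0867.

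Reg3g and Reg3b, antimicrobial lectins encoded close together on chromosome 6 (78466269 to 78468872 and 78370657 to 78373466), fell with HFD, and rested on few cells. Reg3g was at 330 and 203.8 TPM in the control sets and at 14.2 and 29.9 TPM in the HFD sets, a log2 difference of -3.59 ± 0.39 (SE) with a limma adjusted p of 9.44e-05. It was held by 10 of 32, 11 of 34, 3 of 19 and 5 of 34 non-cycling cells, and 1 cell supplied 77.97% of the total in control 1 and 55.7% in control 2. Reg3b was at 267.7 and 143.6 TPM in the control sets, from 2 cells in each, and was listed at 0 in both HFD sets (limma adjusted p = 6.20e-08). The single highest cell gave 94.3% of the control 1 total for Reg3b. With the mean of cell-wise logs, which gives each cell the same weight, neither passed: Reg3g had a limma adjusted p of 0.604 and Reg3b of 0.480, while Fabp1 had 5.10e-07.

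The 2 other genes that passed were secretory markers from single cells. Guca2a, the guanylin precursor of goblet cells and enterocytes (chromosome 4, 119637704 to 119639471), was listed at 0 in both control sets and was at 134.04 and 9.87 TPM in the HFD sets, from 1 cell in each (limma adjusted p = 0.0218). Mmp7, the Paneth cell protease that activates defensins (chromosome 9, 7692090 to 7699585), was listed at 0 in both control sets and was at 92.4 and 8.76 TPM in the HFD sets, from 2 cells and 1 cell (limma adjusted p = 0.0301). Non-cycling cells with at least 3 Paneth markers numbered 2, 1, 4 and 6 by set, and those with at least 3 goblet markers 2, 2, 2 and 4. Guca2a is itself a goblet marker and Mmp7 a Paneth marker of these lists. Leaving such cells out therefore removes cells picked partly by these 2 genes and cannot test their rise. Without the 22 cells that carried secretory transcripts, Reg3g and Reg3b passed and no other tested gene did. Guca2a no longer reached 1 TPM there and was not tested. Of alternative settings with all 4 sets, Reg3b passed in 7 of 11, Reg3g in 6 of 11, Guca2a in 4 of 10 and Mmp7 in 3 of 11. Leaving out any 1 set left 0 genes in each of 4 fits, with 503 to 697 genes at an unadjusted limma p under 0.05 in 3 of these fits and fewer in the other, without control 1.

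**Figure D3:**
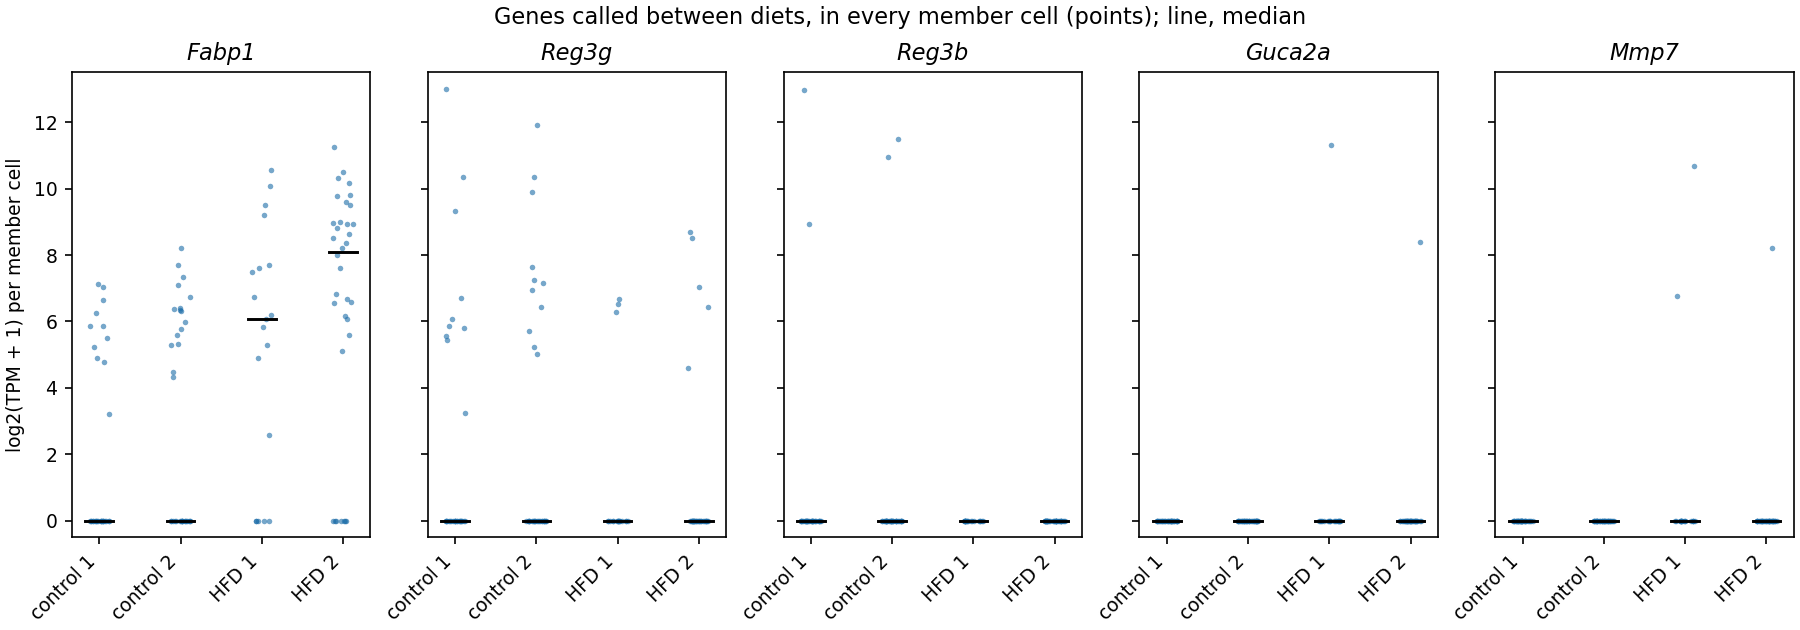
The log2(TPM + 1) of every non-cycling cell of the 4 sets, with the median as a line, for the 5 genes that passed the limma test between diets. Fabp1 is held by 14 of 19 and 27 of 34 cells of the HFD sets, whereas Reg3b, Guca2a and Mmp7 rest on at most 2 cells per set.

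MHC class II genes, which present peptides to helper T cells and which the series title concerns, were lower in the non-cycling cells of both HFD sets without passing the test. Of 7 measured genes 6 had both HFD sets below both control sets, beside 14% of all tested genes (1612 of 11535), and 6 had an unadjusted p under 0.05, but 0 had an adjusted p under 0.05. The median log2 difference was -1.48, beside 0.12 over all tested genes. This list was chosen with its result in these cells known. In cycling cells 5 of the 7 passed, with a median of -1.40, and the test of the difference between the classes called none (median difference -0.01).

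Cd74, the invariant chain that guides class II molecules, was the most abundant class II transcript, at 522 and 517 TPM on control diet and 265.6 and 181.7 TPM on HFD (-1.24 ± 0.33 SE, limma adjusted p = 0.405). It was held by 31 of 32 and 31 of 34 non-cycling cells of the control sets and by 11 of 19 and 21 of 34 of the HFD sets. H2-Aa, the alpha chain (chromosome 17, 34282744 to 34287823), was at 159.4 and 240 TPM against 12.9 and 66.7 TPM (-2.68 ± 0.50 SE, limma adjusted p = 0.0615), and was held by 50% and 61.8% of the control cells and 15.8% and 35.3% of the HFD cells. H2-Ab1, the beta chain (chromosome 17, 34257689 to 34269419), was at 385 and 417 TPM against 52.996 and 216.2 TPM (-1.89 ± 0.45 SE, limma adjusted p = 0.320). The sets of the diets did not overlap for these 3 genes, and HFD 1 was the lowest set for both chains.

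The other class II genes were lower in both HFD sets too, except the activator. H2-Eb1, a second beta chain, was at 146.2 and 228.1 TPM against 59.1 and 71.04 TPM (-1.48 ± 0.34 SE, limma adjusted p = 0.294). H2-DMa and H2-DMb1, which load peptide, were at 66.1 and 57.5 TPM against 27.4 and 28.2 TPM and at 32.9 and 61.5 TPM against 10.5 and 20.9 TPM. Ciita, the transactivator of class II genes, was at 25.8 and 3.74 TPM against 3.17 and 7.73 TPM, with overlapping sets (-0.90 ± 0.73 SE, limma adjusted p = 0.832). With the mean of log2(TPM + 1) over cells in place of the log2 of the mean, Cd74, H2-Aa, H2-Ab1 and H2-Eb1 passed, with log2 differences of -3.20, -2.52, -3.38 and -3.33 and limma adjusted p of 5.10e-07, 0.00814, 5.10e-07 and 1.24e-06. H2-Aa alone passed with median-ratio scaling of the sets (limma adjusted p = 0.0422) and in cells with at least 4000 genes (limma adjusted p = 0.0202), so these calls depend on the averaging, the scaling and the cells admitted.

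Per cell, the class II score (mean log2(TPM + 1) of the list) of non-cycling cells averaged 3.003 and 3.007 on control diet and 1.30 and 1.53 on HFD. The difference of -1.59 was larger than the spread between sets of 1 diet (0.115), with an exact permutation p of 0.333, the smallest possible. At least 4 of the 7 transcripts were held by 26 of 32 (81.3%) and 25 of 34 (73.5%) control cells and by 7 of 19 (36.8%) and 12 of 34 (35.3%) HFD cells. By set, 1, 0, 7 and 7 non-cycling cells held none of the 7, so the non-cycling cells of the HFD sets ranged from none to most of the transcripts. Cycling cells gave a score difference of -1.72. Within the sets the class II score of non-cycling cells had no steady relation to their stem marker score (r of 0.10, -0.07, -0.47 and -0.00 over 32, 34, 19 and 34 cells, which are not independent replicates). T, B and myeloid cells are other carriers of these genes, and no non-cycling cell held 3 markers of any of them.

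**Figure D4:**
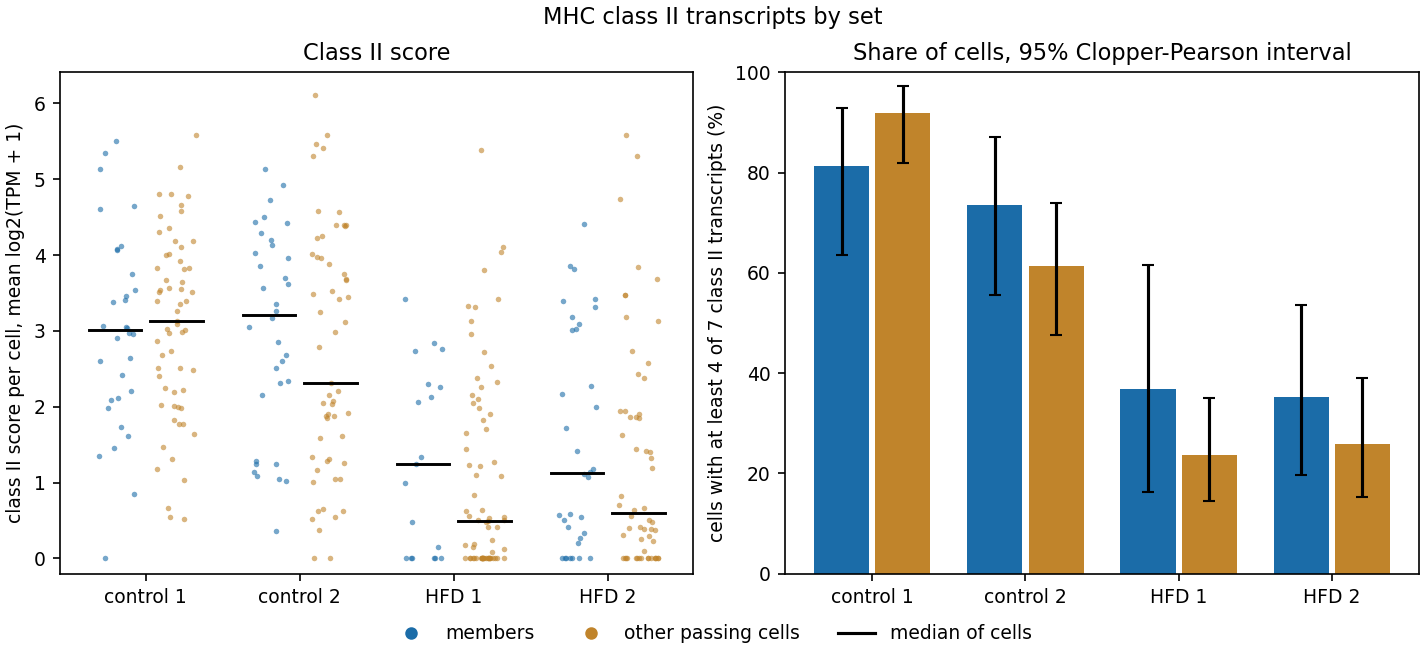
Class II transcripts in non-cycling cells (members) and cycling cells (other passing cells) of the 4 sets, as the score of each cell (mean log2(TPM + 1), with the median as a line) and as the share of cells holding at least 4 of 7 transcripts with 95% Clopper-Pearson intervals. For non-cycling cells the shares are 81.3%, 73.5%, 36.8% and 35.3%.

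Stem cell markers did not pass the diet test in non-cycling cells. Lgr5 differed by 0.21 ± 0.32 (SE, limma adjusted p = 0.926, 95% interval -0.47 to 0.88), so its difference lies within less than 1 log2 unit on either side. Ascl2, at 69.8 and 51.1 TPM on control diet and 164.5 and 98.5 TPM on HFD, had the widest gap of the 4 (1.08 ± 0.36 SE, limma adjusted p = 0.585); in cycling cells it differed by 0.04, and the test of the difference between the classes gave 1.04 with a limma adjusted p of 0.912. The stem marker score was 8.13 and 7.95 on control diet and 8.77 and 8.16 on HFD, a difference of 0.42 beside a spread of 0.318 between sets (exact permutation p = 0.333). HFD 1, with the fewest non-cycling cells, was the highest set. Nrn1, a membrane-anchored neuritin of the stem signature, was lower with HFD by -2.09 ± 0.54 (SE, limma adjusted p = 0.375), from 23.6 and 48.3 TPM to 4.16 and 11.9 TPM, without overlap.

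None of the replication genes passed between diets in non-cycling cells, although most had higher levels in the HFD sets. Of 32 tested, 28 had a positive difference, 9 had an unadjusted p under 0.05, and 21 had both HFD sets above both control sets, beside 22.9% of all tested genes. Their median difference was 0.57, beside 0.12 over all tested genes. Other lists lay above that median in the same cells: 12 of 14 housekeeping genes had a positive difference (median 0.38), as did 18 of 20 Myc targets and nucleolar genes (median 0.38), and the part of such a wider shift in the replication genes was not tested. Mcm3, a subunit of the replicative helicase, was at 48.8 and 34.5 TPM on control diet and 110.99 and 98.95 TPM on HFD (1.33 ± 0.35 SE, limma adjusted p = 0.375). Gins1, another helicase subunit, was at 4.57 and 0.732 TPM against 19.5 and 17.8 TPM (2.66 ± 0.66 SE, limma adjusted p = 0.346). The S-phase score was 2.50 and 2.04 against 2.87 and 2.92, a difference of 0.62 beside a spread of 0.234 (exact permutation p = 0.333), and cycling cells differed by 0.82. The G2/M score differed by only 0.03.

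Folding genes gave a like picture, with 0 of 23 passing and 12 with both HFD sets above both control sets, beside 22.9% of all tested genes. Their median difference was 0.54, beside 0.12 over all tested genes and 0.38 over the housekeeping genes. The part of a wider shift in the folding genes was not tested. Calr, a folding lectin of the endoplasmic reticulum, was at 78.04 and 81.3 TPM on control diet and 205.3 and 141.1 TPM on HFD (1.09 ± 0.33 SE, limma adjusted p = 0.506). Sdf2l1 differed by 1.88 ± 0.51 (SE, limma adjusted p = 0.405). The score of this list was 3.22 and 3.09 against 3.94 and 3.45, a difference of 0.54, and 0.70 in cycling cells. Of 36 PPAR and fatty acid oxidation genes Fabp1 alone passed, and Acaa1b, a peroxisomal thiolase that may share reads with Acaa1a, went from 0.206 and 0.0838 TPM to 7.999 and 9.92 TPM (3.12 ± 0.77 SE, limma adjusted p = 0.346), from 2, 1, 3 and 5 cells.

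Whether the diets differ more in 1 class than in the other was tested gene by gene on the difference of the classes within each set. Of 12094 genes 0 (0%) passed in limma, 670 had an unadjusted p under 0.05, and the smallest adjusted p was 0.888. Among the scores of lists outside the rule, the diet difference differed most between the classes for cholesterol synthesis. Its score was 1.76, 1.54, 1.99 and 1.79 in non-cycling cells of the sets, and 2.64, 2.31, 3.42 and 3.15 in cycling cells. The difference between the classes was thus -0.88 and -0.78 on control diet and -1.43 and -1.36 on HFD, -0.57 apart beside a spread of 0.065 (exact permutation p = 0.333, the smallest possible). No single gene of that list passed in non-cycling cells. The cholesterol synthesis score of the HFD sets was higher by 0.81 in the cycling cells and by 0.24 in the non-cycling cells, a pattern seen in the scores and not in the test over genes. The list was picked for having the largest such difference, so these values are a description only.

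**Figure D5:**
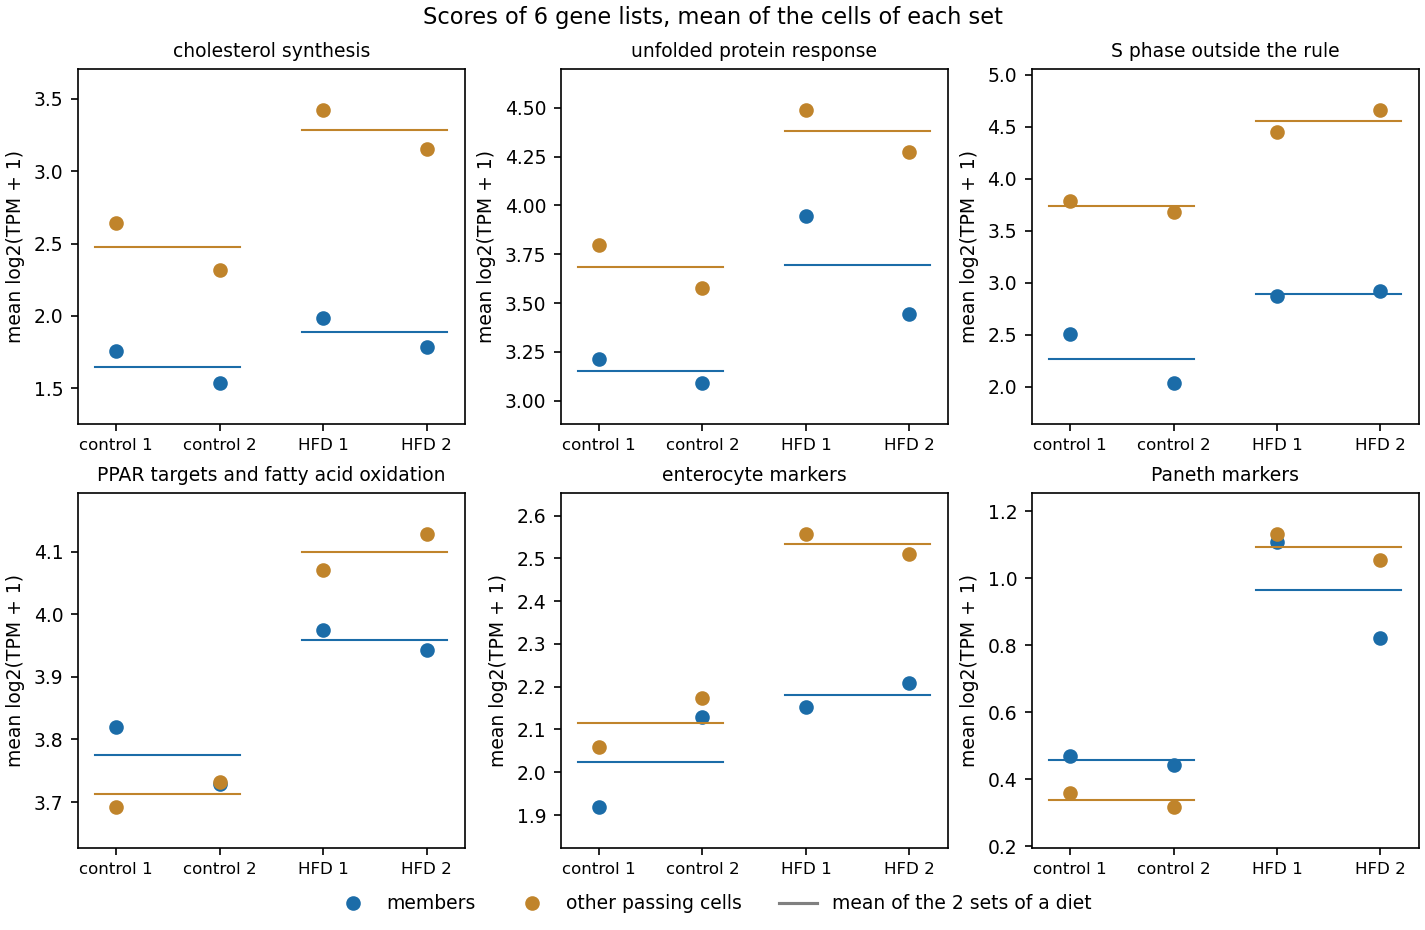
Mean score per set (mean log2(TPM + 1) of each list) in non-cycling and cycling cells of the 4 sets, with 1 point per set and class and a line for the mean of each diet. The lists are cholesterol synthesis, unfolded protein response, S phase outside the rule, PPAR targets and fatty acid oxidation, enterocyte markers and Paneth markers. The cholesterol synthesis score of cycling cells stands at 3.42 and 3.15 in the HFD sets against 1.99 and 1.79 in non-cycling cells.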

How the data were processed

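Each of 375 samples is 1 sorted cell; 367 passed the limit on genes, 119 of them non-cycling and 248 cycling. The deposited table holds RSEM TPM values of 23420 genes by the authors; 4327 genes were at 0 in every cell. Bowtie2, RSEM and the mm10 build are named per the submitters' processing notes, with no version in the sources used here. The TPM of every cell summed to between 999999.2 and 1000000.6, so the depth is unknown. Gene symbols that had been turned into dates (27) were not used.

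Cells were placed in sets by their titles, since the labels' diet field gives only the diet. The TPM of the non-cycling or cycling cells of a set was averaged and tested as log2(mean TPM + 1) with limma 3.58.1 (R 4.3.3), with a mean-variance trend, for genes whose average reached 1 TPM, two-sided, at a Benjamini-Hochberg adjusted p of 0.05. The class by diet difference used limma without a trend on the per-set differences, without the 15 genes of the rule. Scores were tested by exact permutation of sets. Spreads are SDs within diets, pooled. The limma fits were tested on simulated data. A transcript counts as held at 1 TPM or more.

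Named were the genes that passed, all class II genes, the 4 stem markers, the rule's genes, the 10 largest differences in each direction between classes and a few genes per list by size or p; others are said to have been chosen after their values were seen. Some genes that this rule names are not reported here. The members and lists were chosen with earlier results of these data known. Alternatives were another pseudocount, no filter, cell-wise logs, Rn45s left out, a replicate block, no trend, stricter members (fewer than 2 genes of each list), cells without secretory transcripts, each set left out, and, chosen after seeing the data, median-ratio scaling, at least 4000 genes per cell, a window of gene numbers, and Rn45s left out together with cell-wise logs.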

Additional observations from a re-analysis of the deposited data

Results flagged for a closer look

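The score of 9 Paneth cell markers (mean log2(TPM + 1) per cell) was flagged because its difference between the classes had opposite signs in the diets. In the control sets the non-cycling cells stood above the cycling cells, by 0.111 and 0.124, and in the HFD sets they stood below them, by a difference of -0.0234 and -0.232. The diets thus differed by -0.245, beside a spread between sets of 0.104, with an exact permutation p of 0.333, the smallest that 4 sets allow. The score itself was 0.470 and 0.442 in non-cycling cells on control diet and 1.11 and 0.823 on HFD. Cells with at least 3 Paneth markers numbered 2, 1, 4 and 6 among non-cycling cells by set, and 4, 3, 15 and 8 among cycling cells. Their part in the score difference was not tested.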

How the results depend on the processing

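The count of 5 genes that passed between diets in non-cycling cells depended on the processing. It was 8 with the mean of cell-wise logs, 3 with Rn45s left out, 1 by limma without a trend, 1 with stricter members, 2 without secretory cells, 0 without the filter on low genes (854 genes at an unadjusted p under 0.05) and 0 to 0 when each set was left out; 4 other settings stayed within 1.5 times. With the set number as a replicate block limma called 99 genes, 75 higher and 24 lower, but only 2 pairs share a number and their deviations correlated by 0.0906, so the numbers do not show a pairing; of the class II genes 5 were among the 99, and the limma adjusted p of H2-Aa ran from 7.08e-17 with the block to 0.989 without control 1. The median class II difference of -1.48 became -2.52 with cell-wise logs and -2.73 with Rn45s also left out, and the class II score difference of -1.59 became -1.34 in stricter members. With cell-wise logs 559 genes were higher and 3460 lower in non-cycling cells in all 4 sets, in place of 1127 and 1891. The share of non-cycling cells, the stem marker score and the count of 0 genes that differed between the classes kept their direction and their side of the threshold in all 3, 7 and 9 settings tried. Of the named genes, uncalled differences changed sign for Ciita (-0.90, and -2.15 to 0.35 when each set was left out, positive without control 1) and Lgr5 (0.21, and -0.018 to 0.43 when each set was left out, negative without control 2, and -0.17 with Rn45s left out and cell-wise logs). Of the medians between the classes, over all measured genes of a list, class II turned from 0.28 to -0.14 in the window of gene numbers, antiproliferative genes from 0.22 to -0.04 with cell-wise logs, and, without secretory cells, goblet markers from -0.76 to 0.21 and Paneth markers from -1.54 to 0.77. The cause of these changes was not tested. In the last pair the cells left out were picked by goblet and Paneth markers of the same lists. With 2 sets per diet and unknown depth per cell, a gene carried by few cells rests on those cells.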

Other observations

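The number of genes detected was close between diets in non-cycling cells, with medians of 6398 and 5544 on control diet and 5994 and 5708.5 on HFD. The enterocyte marker score of non-cycling cells was 1.92 and 2.13 on control diet and 2.15 and 2.21 on HFD, a difference of 0.16, and cycling cells differed by 0.42; the difference between the classes was -0.26, beside a spread of 0.0704 (exact permutation p = 0.333). The goblet marker score differed by 0.36 in non-cycling and 0.35 in cycling cells.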
